A study of Mus musculus with 16 samples.

Results

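Pparg, which encodes the nuclear receptor PPAR-gamma, was examined with 8 genes that take up, bind, store or burn fatty acids (Lpl, Angptl4, Cd36, Fabp4, Fabp5, Acsl1, Plin2 and Cpt1a) in bulk RNA sequencing of mouse macrophages. The 9 genes were found by symbol in a table of 46320 genes, of which 15610 had enough counts to be tested, and all 9 of 9 passed that filter. The genes had been chosen by their library-size scaled values in all 4 groups of these libraries. Their levels and fold changes below are therefore a description and carry no p-value, and their counts past the threshold are printed beside the share of all genes called without anything being read from them.

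The macrophages were grown from marrow of C57BL6/J mice for 7 days with L929-conditioned medium as the source of M-CSF, the macrophage growth factor. All groups shared this culture and a starvation of 4 h in 0.5% serum. Treatment for 4 h followed, with PBS as the vehicle, thrombin alone, resting platelets, or platelets activated by thrombin, and each group had 4 libraries (16 in all). The platelets came from blood of C57BL6/J mice. The protocol gives thrombin at 0.01 U/mL, whereas the labels of the thrombin group give 0.1 U/mL and those of the activated platelet group give no dose. Comparisons of activated platelets with thrombin assume 1 dose. The labels do not say whether replicates came from separate animals or cultures, so the p-values measure only the spread between these samples.

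PPAR-gamma pairs with a retinoid X receptor on DNA and switches on genes of lipid handling when it binds fatty acids or their derivatives. In macrophages it is known for the uptake and storage of lipid from lipoproteins, and in fat tissue it drives fat cell formation. Lipoprotein lipase frees fatty acids from circulating triglyceride, CD36 carries them across the membrane, FABP4 and FABP5 bind them in the cell, and acyl-CoA synthetases, perilipins and carnitine palmitoyltransferases send them to activation, storage or oxidation.

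Levels are given as CPM, the counts of a gene in each 1000000 counts of the library, scaled by the trimmed mean of M-values. Library totals, in units of 1000000 counts, were 22.6 to 27.7 with vehicle, 23.1 to 26.7 under thrombin and 24.9 to 26.4 with resting platelets. They were 28 to 30.6 with activated platelets, so every library of that group was deeper than every other library. The part of depth in the results was not tested. The libraries numbered 1 stood apart in every group: Ddx3y, on the Y chromosome, was at 85.1 to 93.2 CPM in them and at most 0.27 CPM in the others, and Xist was at 0.0716 to 1.06 CPM in them against 1060 to 1290 CPM. By these genes the libraries numbered 1 read as male and the others as female. Whether numbers 2, 3 and 4 were separate animals is not shown by them. Fold changes without replicate 1 are therefore given beside those of the 9 genes on which the text turns, and calls of pathway genes that are lost without it are named. The summed level of macrophage markers was 18900 to 24500 CPM over all libraries. Lyz2 was its largest part, with means of 12800 CPM with vehicle and 12700 CPM with activated platelets. In the same order Mertk was at 211 and 158, Cd68 at 1230 and 1070, and Adgre1 at 1440 and 1350 CPM. Higher with activated platelets were Fcgr1 (127 and 166), Itgam (702 and 786), Csf1r (2570 and 2810) and Ctss (3000 and 3280). Adipocyte markers summed to at most 0.358 CPM, with Lep, Cfd and Cidec at 0 counts in every library. Platelet markers summed to 9.15 to 12.4 CPM with vehicle, 10.2 to 12.4 CPM under thrombin, 14.5 to 38.7 CPM with resting and 111 to 173 CPM with activated platelets. Erythroid markers moved with them, from at most 0.0714 CPM with vehicle to 7.62 to 14.2 CPM with activated platelets. The stromal list summed to 2580 to 5150 CPM with vehicle and 2050 to 4410 CPM with activated platelets. With vehicle its genes were very unequal: Col1a1 averaged 1740, Col1a2 1620, Col3a1 232, Cxcl12 87 and Pdgfrb 50 CPM. Pdgfra was at 6.61, Dcn at 0.442 and Lum at 0.036 CPM. The part of these other RNAs in the results below was not tested.

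Pparg lies on chromosome 6 at 115337840 to 115467365 on the plus strand of GRCm39, the build of the deposited table. With vehicle it was at 42.7, 54.8, 44.5 and 42.8 CPM in replicates 1 to 4, and with thrombin alone at 45.5, 56.2, 49.5 and 45.5 CPM. With resting platelets it was at 35.8, 38.7, 37.8 and 32.1 CPM, and with activated platelets at 12, 13.6, 13.5 and 15.3 CPM. All 4 libraries with activated platelets were below all 12 others, and all 4 with resting platelets were below all 4 with vehicle. The mean was 46.2 ± 5.78 CPM (SD, n = 4) with vehicle and 13.6 ± 1.35 CPM (SD, n = 4) with activated platelets, which is 3.4-fold lower (log2 fold change -1.76 ± 0.1 SE, and -1.73 without replicate 1). Against resting platelets, at 36.1 ± 2.89 CPM (SD, n = 4), activated platelets gave a level 2.66-fold lower (log2 fold change -1.41 ± 0.1 SE, and -1.35 without replicate 1). Resting platelets against vehicle gave a log2 fold change of -0.35 ± 0.09 SE, and -0.39 without replicate 1. Thrombin against vehicle gave 0.09 ± 0.09 SE, with groups that overlapped, and the same 0.09 without replicate 1. In bulk RNA, fewer cells of a type and less RNA per cell cannot be told apart.

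The RefSeq table of promoters (GRCm38.p6, a build other than that of the counts) holds 3 start sites for Pparg. The 250 bases before each are shown because Pparg was the gene whose level moved most among the 9 with activated platelets, and because they differ in base composition, with GC contents of 82.4%, 63.6% and 40.8%. Capitals mark AGGTCA, the core element that nuclear receptors recognise.
Pparg start 1, chr6:115360894-115361143, plus strand: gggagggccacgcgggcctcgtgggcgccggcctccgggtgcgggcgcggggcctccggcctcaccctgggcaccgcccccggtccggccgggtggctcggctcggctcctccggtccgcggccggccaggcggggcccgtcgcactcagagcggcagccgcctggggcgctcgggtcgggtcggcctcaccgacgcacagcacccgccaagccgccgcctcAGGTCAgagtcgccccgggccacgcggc
Pparg start 2, chr6:115362099-115362348, plus strand: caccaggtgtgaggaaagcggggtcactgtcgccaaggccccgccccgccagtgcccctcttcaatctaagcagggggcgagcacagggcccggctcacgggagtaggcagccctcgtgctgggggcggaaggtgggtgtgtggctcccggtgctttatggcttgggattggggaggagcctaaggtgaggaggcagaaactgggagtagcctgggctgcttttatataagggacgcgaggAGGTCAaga
Pparg start 3, chr6:115421816-115422065, plus strand: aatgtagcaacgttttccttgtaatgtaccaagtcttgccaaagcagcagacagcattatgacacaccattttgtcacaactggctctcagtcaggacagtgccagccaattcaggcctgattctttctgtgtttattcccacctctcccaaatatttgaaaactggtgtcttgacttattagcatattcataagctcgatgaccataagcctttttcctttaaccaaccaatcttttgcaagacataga
The core element begins 28 bases before start 1 and 9 bases before start 2, and none is in the third window. The count table has 1 row per gene, so the starts were not told apart.

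The same table holds windows for Cd36, Plin2, Cpt1a and Acsl1, which makes 8 windows for 5 of the 9 genes. Of these, 2 carry an approximate direct repeat 1, the element bound by PPAR-gamma with its partner, searched as AGGTCA repeated in the same direction with 1 base between and at most 2 mismatches. Capitals mark the core element and the approximate repeat, all on the opposite strand, so that the core element reads TGACCT.
Cd36, chr5:17835897-17836146, minus strand: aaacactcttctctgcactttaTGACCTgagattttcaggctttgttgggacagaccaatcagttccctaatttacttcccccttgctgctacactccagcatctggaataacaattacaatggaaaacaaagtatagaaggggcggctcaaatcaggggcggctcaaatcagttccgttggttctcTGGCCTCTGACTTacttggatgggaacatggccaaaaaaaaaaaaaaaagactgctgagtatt
Plin2, chr4:86670060-86670309, minus strand: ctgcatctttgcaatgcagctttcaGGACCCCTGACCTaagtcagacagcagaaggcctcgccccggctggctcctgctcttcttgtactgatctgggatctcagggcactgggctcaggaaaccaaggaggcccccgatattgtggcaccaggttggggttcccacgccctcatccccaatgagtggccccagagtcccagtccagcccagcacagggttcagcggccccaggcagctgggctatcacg
In Cd36 the core element begins 228 bases and the approximate repeat 63 bases before the start. In Plin2 the approximate repeat begins 225 bases before the start and contains the core element. Each motif was searched on both strands in all 32851 promoter windows of 300 bases. The core element was in 5 of the 8 windows and in 16.3% of all windows. The approximate repeat was in 2 of the 8 and in 3.86% of all, and every approximate repeat that holds AGGTCA is also counted as a core element. The exact repeat was in 0 of the 8 and in 0.0396% of all windows. The AP-1 motif TGANTCA was in 0 of the 8 and in 7.81% of all windows, and TGACGTCA, the cyclic AMP response element, was in 0 of the 8 and in 1.79%. ACGTG was in 1 of the 8 and in 19.6%, and TATAAA in 1 of the 8 and in 13.6%. A match describes letters only.

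Lpl encodes lipoprotein lipase (chromosome 8, 69333207 to 69359584, plus strand). It was at 2780, 4200, 2090 and 2430 CPM with vehicle and at 2640, 4090, 2390 and 2500 CPM with thrombin. With resting platelets it was at 2280, 3480, 2120 and 2090 CPM, and with activated platelets at 1260, 1850, 1080 and 1070 CPM. Every library with activated platelets was below every library of the other groups, while the other 3 groups overlapped. The mean was 2870 ± 926 CPM (SD, n = 4) with vehicle and 1310 ± 365 CPM (SD, n = 4) with activated platelets, 2.19-fold lower (log2 fold change -1.13 ± 0.25 SE, and -1.11 without replicate 1). Against resting platelets the level with activated platelets was 1.9-fold lower (log2 fold change -0.92 ± 0.25 SE, and -0.93 without replicate 1). Lpl made up 41.1% of the counts of the 9 genes with vehicle and 26.1% with activated platelets. The 9 genes together took 0.693% ± 0.127 (SD, n = 4) of all counts with vehicle and 0.504% ± 0.0676 (SD, n = 4) with activated platelets.

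Angptl4 encodes a secreted inhibitor of lipoprotein lipase (chromosome 17, 33993874 to 34000549, minus strand). Its libraries were at 41.5, 47.6, 68.2 and 54.3 CPM with vehicle, 37.3, 53.3, 72.9 and 46.9 CPM under thrombin, 42.3, 49.1, 78.6 and 58.7 CPM with resting platelets, and 51.2, 55.8, 77.7 and 65.4 CPM with activated platelets. The groups overlapped, and replicate 3 was the highest and replicate 1 the lowest in all 4 groups. Within each replicate number, activated platelets gave the higher value than vehicle in 4 of 4, by 0.3, 0.23, 0.19 and 0.27 on the log2 scale. The log2 fold change was 0.24 ± 0.22 SE, and 0.25 ± 0.06 SE with the replicate number as a block.

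Fabp4 and Fabp5 encode paralogous fatty acid binding proteins of the cytosol, which lie on chromosome 3 (10269402 to 10273676, minus strand, and 10077645 to 10081670, plus strand). Fabp4 was at 49.6, 72, 44.9 and 35.5 CPM with vehicle, 53.2, 88.9, 65.1 and 46.2 CPM under thrombin, 38.8, 53.2, 46 and 29.8 CPM with resting platelets, and 22.4, 35.5, 25.1 and 13.9 CPM with activated platelets. The highest library with activated platelets and the lowest with vehicle were both at 35.5 CPM as rounded, the former just lower, so these groups barely separated. The log2 fold change of activated platelets against vehicle was -1.06 ± 0.28 SE, 2.08-fold lower, and -1.02 without replicate 1. Against thrombin the groups did not overlap and the level was 2.62-fold lower (log2 fold change -1.39 ± 0.28 SE, and -1.41 without replicate 1). Fabp5 moved less: its means were 582 ± 90.5 CPM (SD, n = 4) with vehicle, 626 ± 122 under thrombin, 523 ± 60 with resting and 452 ± 80.5 with activated platelets, and its groups overlapped. Its log2 fold change of activated platelets against vehicle was -0.36 ± 0.15 SE, and its 4 ratios within a replicate number were -0.31, -0.37, -0.34 and -0.46. The deposited counts of Fabp5 were not whole in 14 of 16 libraries, and those of Plin2 in 13 and Lpl in 9, so these are estimates. Whether reads of paralogs were divided between genes was not tested.

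Cd36 encodes a membrane receptor for fatty acids and oxidised lipoproteins (chromosome 5, 17986688 to 18093957, minus strand). Its groups overlapped, with means of 1460 ± 237 CPM (SD, n = 4) with vehicle, 1580 ± 257 under thrombin, 1580 ± 308 with resting and 1370 ± 196 with activated platelets. The log2 fold change of activated platelets against vehicle was -0.09 ± 0.15 SE, and the ratios within replicate numbers 1 to 4 were -0.01, -0.14, -0.09 and -0.11. The values of Cd36 in resting and activated platelet libraries were 1600, 2000, 1430 and 1290 CPM against 1370, 1640, 1270 and 1200 CPM, lower with activation in each number.

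Plin2 coats lipid droplets (chromosome 4, 86545147 to 86588518, minus strand), Acsl1 joins fatty acids to coenzyme A (chromosome 8, 46924074 to 46989088, plus strand), and Cpt1a makes the acylcarnitines that enter mitochondria (chromosome 19, 3372328 to 3435735, plus strand). None of these had groups that separated. Plin2 averaged 1560 ± 214 CPM (SD, n = 4) with vehicle, 1690 ± 263 under thrombin, 1550 ± 205 with resting and 1470 ± 162 with activated platelets, and the last against the first was a log2 fold change of -0.08 ± 0.13 SE, with ratios of -0.07, -0.18, -0.01 and -0.05 within replicate numbers 1 to 4. In the same order Acsl1 averaged 60.2 ± 3.84, 63.4 ± 5.23, 63.4 ± 5.28 and 59.3 ± 9.6 CPM, with a log2 fold change of -0.02 ± 0.1 SE, and its ratios within replicate numbers went in both directions (-0.2, 0.17, 0.02 and -0.12). Cpt1a averaged 251 ± 25.8, 265 ± 25.3, 265 ± 26.5 and 266 ± 23.1 CPM, with a log2 fold change of 0.08 ± 0.09 SE.

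**Figure D1:**
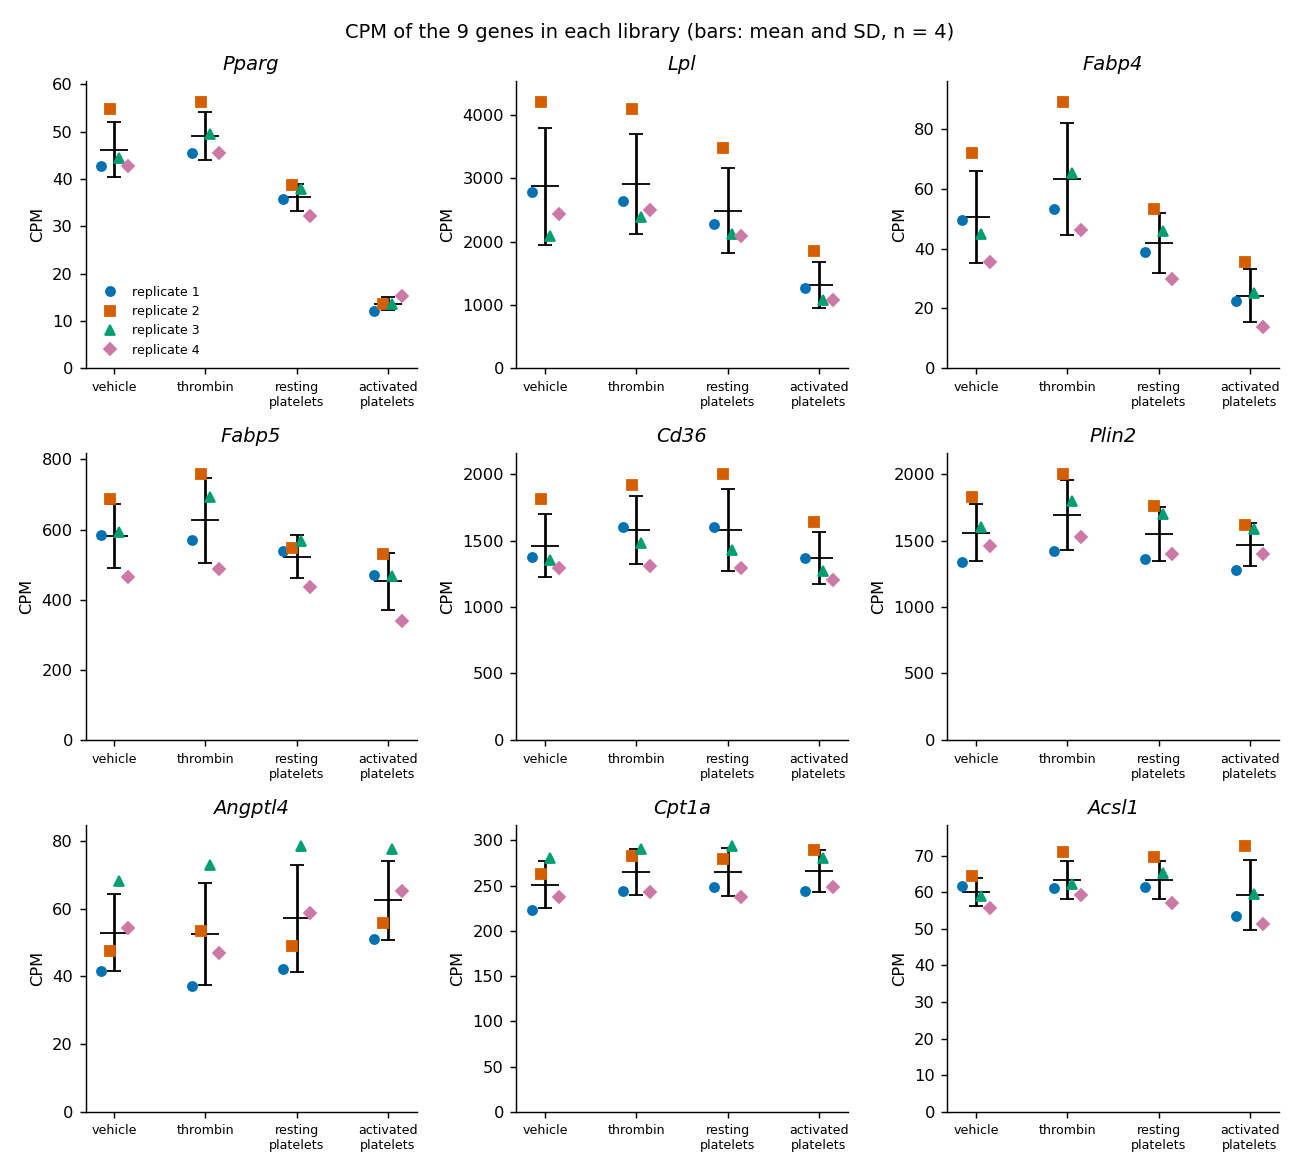
Level of each of the 9 genes in CPM (vertical axis, starting at 0) in the 4 groups. Points are libraries, colour and shape mark the replicate number, and bars show the mean and SD of 4 libraries. Pparg and Lpl with activated platelets lie below every other library, at 12 to 15.3 and 1070 to 1850 CPM.

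The share of all tested genes whose libraries separated was not computed. Of 91 other tested genes of the pathway, described below, 15 were higher and 20 lower without overlap, for activated platelets against vehicle. Nothing is therefore read from the following split. With activated platelets Pparg, Lpl and Fabp4 separated from vehicle, while the libraries of Fabp5, Angptl4, Cpt1a, Acsl1, Plin2 and Cd36 overlapped. Without replicate 1 the log2 fold changes of these 6 were -0.37 (Fabp5), 0.23 (Angptl4), 0.08 (Cpt1a), 0.05 (Acsl1), -0.07 (Plin2) and -0.11 (Cd36), so that the sign turned for Acsl1, whose value was -0.02 with all libraries. Activated platelets against vehicle gave 0 higher and 3 lower of the 9 genes past the edgeR threshold (12.2% and 13.6% of all tested genes were higher and lower, 25.8% in either direction). Against thrombin 0 were higher and 4 lower, namely Pparg, Lpl, Fabp4 and Fabp5, with 11.9% of all genes higher and 13.5% lower (25.4%). Against resting platelets 0 were higher and 2 lower (Pparg and Lpl), with 7.34% of all genes higher and 8.49% lower (15.8%). Resting platelets against vehicle gave 0 higher and 1 lower, Pparg, with 2.07% of all genes higher and 1.32% lower (3.39%), and this call was lost in every fit that left out a library or a replicate number. Thrombin against vehicle gave 0 of 9 in edgeR, 0 at an unadjusted p under 0.05, and 0 with DESeq2 and limma-voom, with 0.0897% of all genes higher and 0.199% lower (0.288%). The interaction, which is the effect of thrombin with platelets minus its effect without, called 0 higher and 1 lower, Pparg (log2 value -1.5 ± 0.13 SE, and -1.43 without replicate 1), with 4.56% of all genes higher and 5.37% lower (9.93%). The comparisons share the libraries of vehicle and of activated platelets and do not stand as separate evidence. Without replicate 1, 1 of the 9 was called for activated platelets against vehicle (16.2% of all genes). For activated against resting platelets 1 was called without replicate 1, 3 or 4 (6.24%, 8.77% and 10.9% of all genes). It was also 1 without resting platelets replicate 2 (12.8%). It was 1 too without activated platelets replicate 1, 3 or 4 (11.4%, 12.8% and 13.5%). For the interaction 3 were called without replicate 2 (6.94% of all genes). There were also 3 without vehicle replicate 2 or activated platelets replicate 2 alone (9.18% and 9.41%). The median log2 fold change of the 9 genes was -0.09 for activated platelets against vehicle, and -0.004 over all tested genes.

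**Figure D2:**
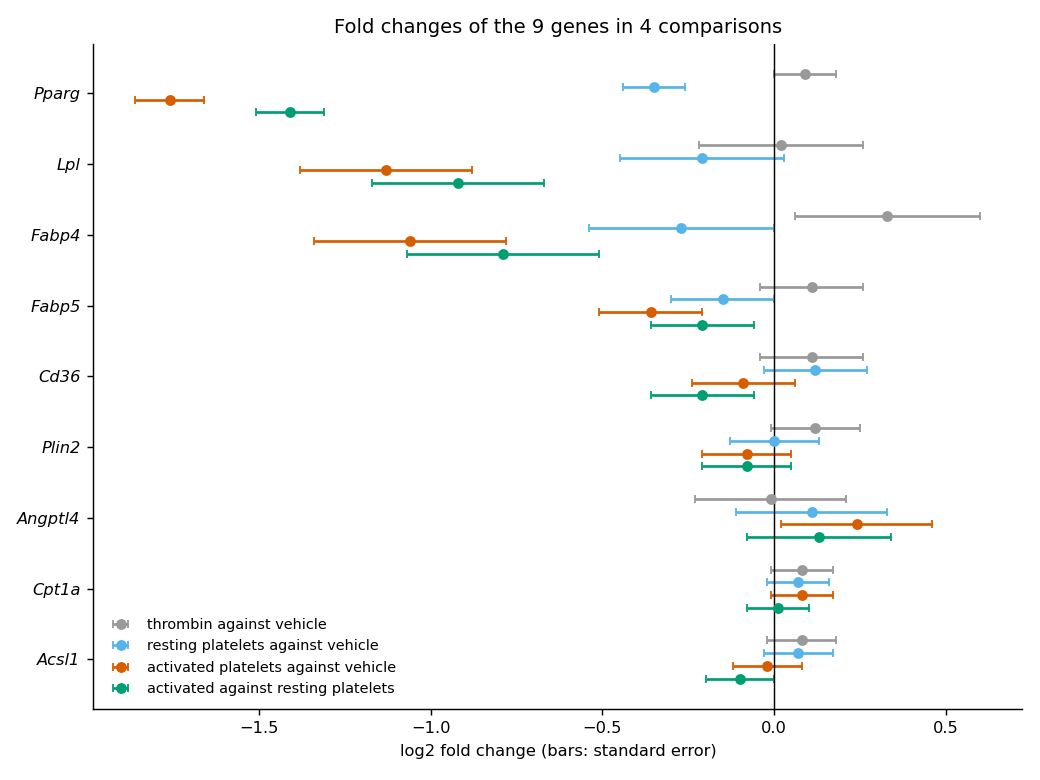
Log2 fold change (horizontal axis) of the 9 genes in 4 comparisons, marked by colour, with bars of the standard error. Pparg lies farthest to the left for activated platelets against vehicle, at -1.76, and Cpt1a, at 0.08, and Angptl4, at 0.24, lie to the right of 0.

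Libraries with the same replicate number deviated together in every pair of groups, with 24 correlations of 0.29 to 0.617, whereas differently numbered libraries gave -0.436 to 0.253. This pairing comes from the data and not from the labels. With the number as a block, activated platelets against vehicle gave 2 higher (Angptl4 and Cpt1a) and 5 lower (Pparg, Lpl, Fabp4, Fabp5 and Cd36) of the 9, with 42.5% of all genes called. Thrombin against vehicle gave 3 higher (Fabp4, Cd36 and Plin2) and 0 lower, with 8.23% of all genes called. Resting platelets against vehicle gave 1 higher (Cd36) and 4 lower (Pparg, Lpl, Fabp4 and Fabp5), with 21.5%. Activated against resting platelets gave 0 higher and 5 lower, with 34.5%, and activated platelets against thrombin 1 higher and 6 lower, with 41.6%. The interaction gave 0 higher and 7 lower, with 29.1%.

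**Figure D3:**
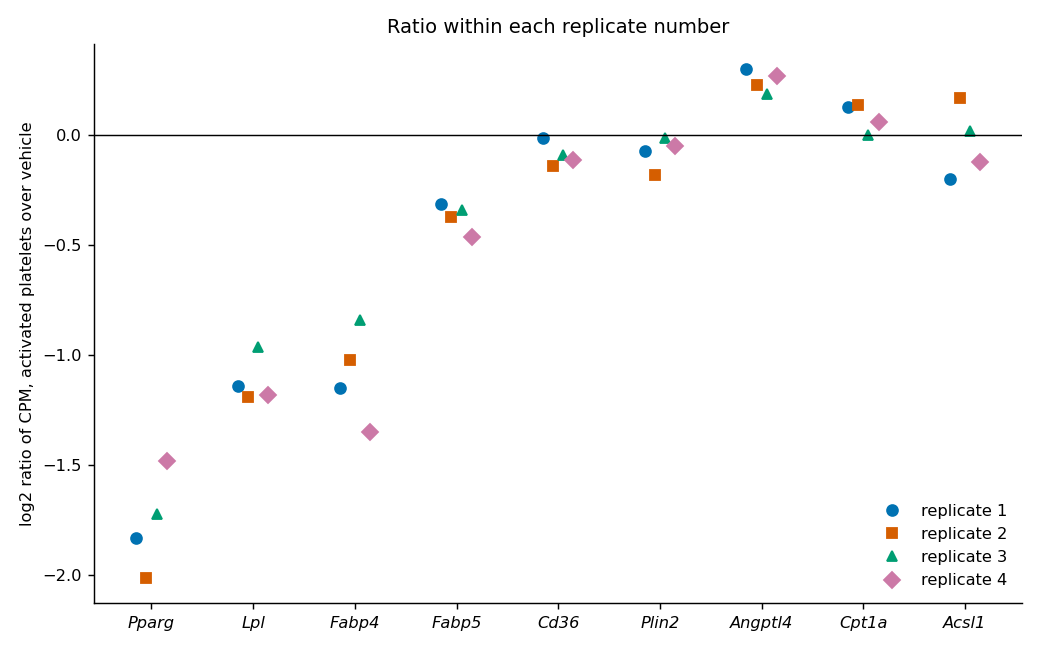
Log2 ratio of activated platelets to vehicle within each replicate number (vertical axis, 0 is no difference), for the 9 genes. Pparg, Lpl, Fabp4, Fabp5, Cd36 and Plin2 lie below 0 in 4 of 4 numbers and Angptl4 above 0 in 4 of 4. Acsl1 lies on both sides, and Cpt1a at 0 to 0.14.

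The share of the spread of log2 CPM that went with the treatment was very unequal. For Pparg it was 97.2% for treatment and 1.4% for replicate number. For Lpl it was 67.2% and 32%, for Fabp4 65.1% and 32.4%, and for Fabp5 40.6% and 53.7%. For the remaining 5 the number took most: Cd36 82.7%, Plin2 82.3%, Angptl4 81.9%, Cpt1a 87.3% and Acsl1 71.9%. Replicate 2 was the highest in all 4 groups for Lpl, Fabp4, Cd36, Plin2 and Acsl1, and replicate 4 was the lowest in all 4 for Fabp4, Fabp5, Cd36 and Acsl1. The highest number exceeded the lowest by 2.05-fold for Fabp4 and 1.18-fold for Pparg. After group means were removed, 32 of the 36 pairs of the 9 genes correlated above 0 over 16 libraries, among them all 28 pairs without Angptl4 (0.268 to 0.937). The highest were Fabp4 with Fabp5 at 0.937, Fabp4 with Acsl1 at 0.92 and Lpl with Cd36 at 0.919. The 8 pairs with Angptl4 ranged from -0.398 to 0.638. These correlations share libraries and depth and are a description.

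**Figure D4:**
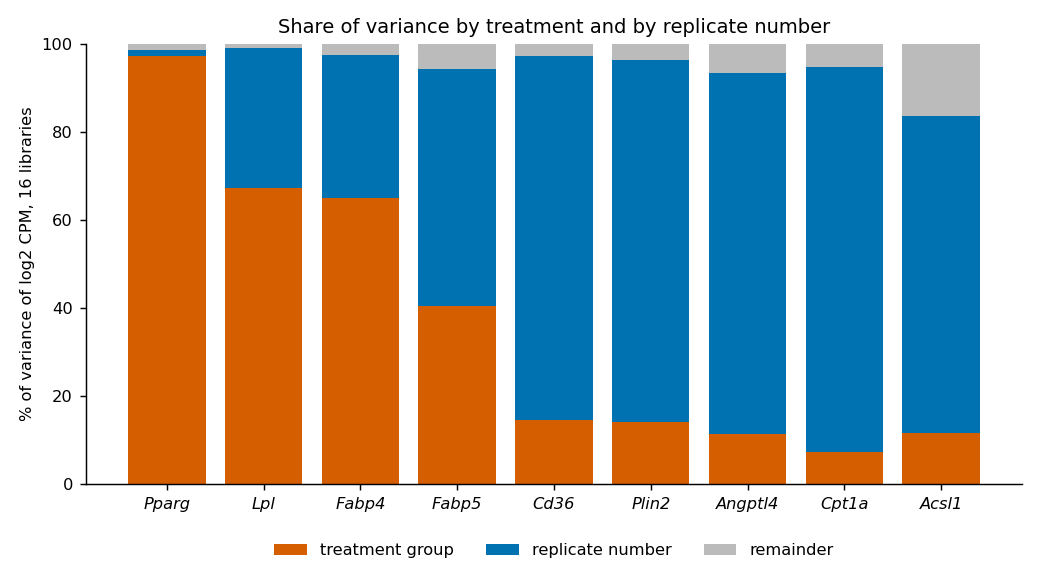
Percent of the spread of log2 CPM over 16 libraries (bars, starting at 0) that went with treatment, with replicate number and with neither, for the 9 genes. Treatment took 97.2% for Pparg and 7.37% for Cpt1a.

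Divided by exon length, as CPM per kilobase, the order of levels with vehicle was Lpl (710 ± 229), Fabp5 (611 ± 95), Plin2 (531 ± 73), Cd36 (360 ± 58.4), Fabp4 (56.6 ± 17.4), Cpt1a (49.8 ± 5.11), Angptl4 (27.8 ± 6.01), Pparg (12.4 ± 1.56) and Acsl1 (8.56 ± 0.546), all SD with n = 4. The first 3 lay within their spread of each other, as did Fabp4 and Cpt1a. With activated platelets Plin2 was first (503 ± 55.2), then Fabp5 (474 ± 84.4), Cd36 (338 ± 48.3) and Lpl (324 ± 90.2). Plin2 and Fabp5 lay within their spread, as did Cd36 and Lpl. Cpt1a (52.7 ± 4.58), Angptl4 (32.9 ± 6.16) and Fabp4 (27.2 ± 9.98) followed, the last 2 within their spread. Pparg, at 3.66 ± 0.364, was then the lowest of the 9, below Acsl1 at 8.43 ± 1.36.

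The genes whose pattern over the 16 libraries was most like that of each of the 9 were sought among 10362 genes by Pearson's r of log2 CPM. For Pparg they were Ptpn22 (0.989), Plekho2 (0.988) and Mapre2 (0.988). Ptpn22 averaged 52.8 CPM with vehicle, 53.1 under thrombin, 43.7 with resting and 22.1 with activated platelets. For Lpl they were Atf3 (0.979), Igf2bp2 (0.972) and Neat1 (0.967), for Fabp4 Blnk (0.981), Slamf7 (0.97) and Cd200r4 (0.97), and the nearest to Cd36 was Mmp12 (0.979).

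Among 91 other genes of the pathway that could be tested (102 were listed, members left out), activated platelets against vehicle called 19 higher and 21 lower, which is 44%, beside 25.8% of all tested genes. Their median log2 fold change was -0.04. The lists were chosen with earlier results of these data known. The 44% is thus a description, and the adjusted p-values of named genes below carry that limit. Thrombin against vehicle called 0 higher and 1 lower of 91 (0 on leaving out any library or replicate number), resting platelets against vehicle 2 higher and 1 lower, activated against resting platelets 15 higher and 13 lower, activated platelets against thrombin 22 higher and 20 lower, and the interaction 9 higher and 9 lower. Without replicate 1, 16 were called for activated against resting platelets and 4 for the interaction (6.24% and 1.69% of all genes). Without replicate 3 these were 18 and 7 (8.77% and 4.82%), and without replicate 4 the interaction called 10 (6.44%). Resting platelets against vehicle called 0 without replicate 1, 2 or 4 (0.372%, 0.919% and 0.745% of all genes). With the replicate block, thrombin against vehicle gave 6 higher and 8 lower, resting platelets against vehicle 9 and 16, activated against resting platelets 24 and 24, and the interaction 23 and 19. Values below are edgeR log2 fold changes ± SE of activated platelets against vehicle with adjusted p, and CPM are means ± SD with n = 4. Of 29 pathway genes called there that met the rule for named genes, 24 were called without replicate 1 as well, and the log2 fold changes of all 29 kept their sign and moved by at most 0.15.

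Of 13 tested partners and regulators of PPAR proteins, 3 rose and 1 fell, with a median log2 fold change of -0.04. Cebpb, a factor that acts early in fat cell formation, rose from 54.4 ± 5 to 129 ± 17.5 CPM (1.25 ± 0.12, adjusted p = 2.23e-06). Cebpa rose by 0.48 ± 0.14 (adjusted p = 0.0158), but at adjusted p = 0.0764 without replicate 1 and 0.119 without replicate 3, and 0.0521 without activated platelets replicate 2 alone. The coactivator Ppargc1b fell from 4.24 ± 0.326 to 2.73 ± 0.515 CPM (-0.63 ± 0.13, adjusted p = 0.0016). Rxra, the usual partner, was at 118 ± 7.02 and 113 ± 12.2 CPM (adjusted p = 0.609), and Ppard had an adjusted p of 0.712.

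Of 16 genes of lipoprotein and fatty acid uptake, 5 rose and 4 fell (median -0.07). Cav1, a caveola protein, rose from 29.5 ± 1.99 to 73.6 ± 5.17 CPM (1.32 ± 0.11, adjusted p = 2.77e-07). Olr1, a receptor for oxidised lipoprotein, rose from 0.391 ± 0.137 to 3.64 ± 2.44 CPM (3.23 ± 0.45, adjusted p = 6.48e-05). It was near the floor with vehicle, at 40 counts over 4 libraries, and ran from 2.09 to 7.28 CPM with activated platelets. Apoc2, which activates lipoprotein lipase, rose by 0.58 ± 0.16 (adjusted p = 0.0128, and 0.0566 without replicate 1 and 0.102 without replicate 2). Lipa, the lysosomal acid lipase, fell from 2130 ± 183 to 1370 ± 136 CPM (-0.63 ± 0.1, adjusted p = 0.000166), and Scarb1, a lipoprotein receptor, fell by 0.43 on the log2 scale (adjusted p = 0.00015). Fabp3 fell by 0.61 (adjusted p = 0.00963, and 0.0696 without replicate 1 and 0.0919 without replicate 3). Of the endothelial markers, Pecam1, which platelets also carry, had means of 1.62 CPM with vehicle and 7.63 CPM with activated platelets, Kdr 3.89 and 5.29, and Cdh5 1.52 and 1.95. Tek was at 0.0975 and 0.112 CPM, Tie1 at 0.481 and 0.31, Emcn at 0.924 and 0.853, Cldn5 at 0.0272 and 0, and Gpihbp1 at 0 in both. Their sum was 4.69 to 11.3 CPM with vehicle and 11.4 to 18.6 CPM with activated platelets, and its part in Cav1 was not tested.

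Of 11 genes of acyl-CoA synthesis and hydrolysis, 1 rose and 4 fell (median -0.1). Acsl4, which prefers arachidonic acid, rose from 94.3 ± 4.34 to 135 ± 7.24 CPM (0.52 ± 0.05, adjusted p = 1.17e-06), while Acsl3 and Acsl5 had adjusted p of 0.323 and 0.973. Acss1 and Acss2, which make acetyl-CoA, fell by 0.75 and 0.67 (adjusted p = 5.98e-05 and 0.000226). Acot9, an acyl-CoA thioesterase, fell by 0.18 (adjusted p = 0.0199), a call lost without replicate 2, 3 or 4.

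Of 17 genes of lipid droplets and triglyceride turnover, 4 rose and 4 fell (median 0.04). Hilpda, a droplet protein that inhibits triglyceride lipase, rose from 5.79 ± 0.834 to 15.7 ± 2.22 CPM (1.43 ± 0.13, adjusted p = 5.33e-07). Gpat3, which starts glycerolipid synthesis, rose by 1.1 ± 0.16 (adjusted p = 7.76e-05), and Lpin2, a phosphatidate phosphatase, by 0.62 ± 0.09 (adjusted p = 8.94e-05). Its relative Lpin1 fell from 36 ± 5.62 to 23.3 ± 3.95 CPM (adjusted p = 0.00643, and 0.0662 without replicate 2). Abhd5, which activates triglyceride lipase, fell by 0.55 (adjusted p = 0.000727), and the droplet coat Plin3 fell by 0.39 (adjusted p = 0.00451, and 0.0691 without replicate 1).

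Of 23 genes of mitochondrial and peroxisomal oxidation, 2 rose and 7 fell (median -0.11). Hadh fell from 63.1 ± 1.78 to 48.3 ± 1.85 CPM (-0.39 ± 0.04, adjusted p = 3.95e-06), Hadhb fell by 0.42 (adjusted p = 3.03e-05) and Acaa2 by 0.4 (adjusted p = 0.000744). All 3 encode enzymes of the mitochondrial beta-oxidation cycle. The carnitine carrier Slc25a20 rose by 0.27 ± 0.06 (adjusted p = 0.00278) and the electron carrier enzyme Etfdh by 0.19 ± 0.04 (adjusted p = 0.00362). Cpt2, the inner membrane partner of Cpt1a, had an adjusted p of 0.718.

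Of 11 other PPAR-responsive genes, 4 rose and 1 fell (median 0.21), and 6 were higher and 4 lower with the block. Adipor2, an adiponectin receptor, rose by 0.27 ± 0.06 (adjusted p = 0.00234) and Tsc22d1 by 0.24 ± 0.06 (adjusted p = 0.00429). Ucp3 rose from 0.158 ± 0.102 to 0.459 ± 0.149 CPM (adjusted p = 0.0308), a call lost without replicate 1 (adjusted p = 0.105), 3 or 4. Cyp27a1, a sterol hydroxylase, fell from 72.7 ± 9.96 to 45.5 ± 8.3 CPM (-0.68 ± 0.15, adjusted p = 0.00387). Pdk4 was at 28.7 ± 7.88 and 24.4 ± 8.06 CPM, with an adjusted p of 0.578, and fell by 0.24 with the block (adjusted p = 0.00369).

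With resting platelets against vehicle, Cav1 rose (0.57 ± 0.11, adjusted p = 0.0102), Acsl4 rose (0.25 ± 0.05, adjusted p = 0.0122) and Hadh fell (-0.19 ± 0.04, adjusted p = 0.0197), and the call of each was lost in a fit of these 2 groups alone (adjusted p of 0.0537, 0.0528 and 0.0513). Each was also lost without replicate 1, 2 or 4, and Hadh without replicate 3.

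**Figure D5:**
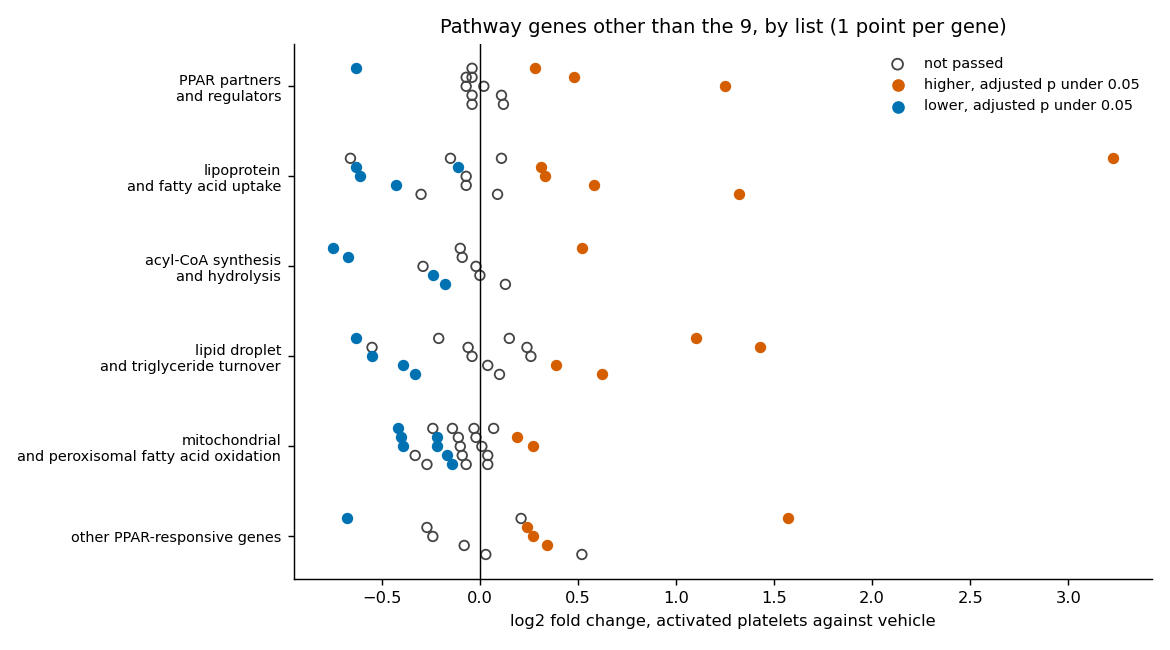
Log2 fold change of activated platelets against vehicle (horizontal axis) for the 91 tested pathway genes in 6 lists, 1 point per gene, with genes past the threshold marked. Each list has points on both sides of 0, with Olr1 farthest to the right at 3.23, from a mean of 0.391 CPM with vehicle, near the floor.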

How the data were processed

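The libraries came from a stranded mRNA kit, per the labels' protocols. The authors deposited estimated counts per gene, with no normalization, on GRCm39 coordinates. The submitters' processing notes name STAR 2.7.2b, featureCounts 1.6.4 and cutadapt 2.5, and the builds mm10 and GRCm39, with no role or order. How strand and multiply matching reads were handled is not given in the sources used here. Of the deposited values above 0, 25.5% were not whole, although whole counts had been assumed in the design. All were rounded, which changed 0.00734% of the counts. In total 0 columns were left unused.

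Each library was grouped by its title. Genes were filtered by filterByExpr, scaled by TMM and fitted on all 16 libraries as 4 groups without a block, with edgeR 4.0.16 (R 4.3.3), using its quasi-likelihood test with robust dispersions. P-values were two-sided and adjusted by Benjamini-Hochberg over 15610 genes, with a threshold of 0.05. The scripts were tested on simulated data. The 9 genes and the pathway lists were chosen with earlier results of these data known. Named pathway genes were, per list, up to 3 called in each direction with the smallest p for activated platelets against vehicle, up to 2 for resting platelets, up to 3 for thrombin, and 12 genes named whatever their values. Levels per kilobase used the exon length deposited with each gene. Nearest genes had a mean of at least 5 CPM, with a prior count of 2. The pairing of replicate numbers was read from the correlation of deviations from group means, and each of 16 libraries correlated best with its own number. Alternatives were a replicate block, RLE factors, DESeq2 1.42.0, limma-voom 3.58.1, no low-count filter, only the 2 groups compared, and leaving out each library or number. A pathway gene that meets the rule for named genes is not reported here, though the counts include it.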

Additional observations from a re-analysis of the deposited data

Results flagged for a closer look

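In 36 sets of 4 libraries (9 genes in 4 groups), 3 libraries lay far from the other 3, where chance gives about 1 in 20 sets. Pparg was at 54.8 CPM in vehicle replicate 2, against 42.7 to 44.5 CPM in the others. Lpl was at 4090 CPM in thrombin replicate 2, against 2390 to 2640 CPM, and at 3480 CPM in resting platelets replicate 2, against 2090 to 2280 CPM. All 3 carried replicate number 2.

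The effect of thrombin with platelets differed from its effect without them, by the interaction term of edgeR at an adjusted p under 0.05, for 10 of the pathway genes named above. It assumes the same thrombin dose in both settings. The interaction was below 0 on the log2 scale for Abhd5 (-0.63), Lipa (-0.57), Acss1 (-0.53), Hadhb (-0.46) and Acot9 (-0.3). It was above 0 for Hilpda (1.29), Cebpb (0.71), Cav1 (0.69), Lpin2 (0.48) and Tsc22d1 (0.29). Of these 10, 3 had an adjusted p under 0.05 without replicate 1, namely Hilpda (0.0118), Acss1 (0.0313) and Hadhb (0.0449). The calls of Cebpb, Cav1, Lipa, Acot9, Lpin2, Abhd5 and Tsc22d1 were lost there, at adjusted p of 0.0613 to 0.167. Without replicates 2, 3 and 4 in turn, 6, 4 and 4 of the 10 were called. Hilpda and Hadhb were called in each of these 4 fits. Over all tested genes the interaction called 1550 with all libraries and 264 without replicate 1. Without replicates 2, 3 and 4 in turn it called 1087, 755 and 1003.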

How the results depend on the processing

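The replicate block made the largest difference to the counts of genes called. With it, the pathway genes called went from 1 to 14 for thrombin against vehicle, from 3 to 25 for resting platelets against vehicle, from 28 to 48 for activated against resting platelets and from 18 to 42 for the interaction. Of the 9 genes, those called with the replicate block went from 0 to 3, from 1 to 5 and from 3 to 7 for thrombin, resting platelets and activated platelets against vehicle, from 2 to 5 for activated against resting platelets, from 4 to 7 for activated platelets against thrombin and from 1 to 7 for the interaction. The share of all tested genes called went from 0.288% to 8.23%, from 3.39% to 21.5% and from 25.8% to 42.5% for these comparisons with vehicle. In the same order, it went from 15.8% to 34.5%, from 25.4% to 41.6% and from 9.93% to 29.1% for the others. The block turned no sign. For thrombin against vehicle DESeq2 called 2 pathway genes and the 2-group fit 0. For resting platelets against vehicle the 2-group fit called 0 pathway genes. There limma-voom, no low-count filter and the 2-group fit each called 0 of the 9 (2.98%, 1.19% and 1.25% of all genes). Without the filter 1 of the 9 was called for activated against resting platelets (7.12% of all genes). Leaving out libraries gave the pathway counts 0 to 0 for thrombin, 0 to 3 for resting platelets and 30 to 38 for activated platelets against vehicle (40 with all), 16 to 28 for activated against resting platelets, 35 to 42 for activated platelets against thrombin and 4 to 19 for the interaction. For the 9 genes it gave 0 to 0, 0 to 0, 1 to 4, 1 to 3, 3 to 4 and 1 to 3 in the same order. Over all tested genes it gave 0.0257% to 0.171%, 0.372% to 3.49%, 16.2% to 23.7%, 6.24% to 14.3%, 15.5% to 24.1% and 1.69% to 10.6%.

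Of 718 values for 40 results on pathway genes, 51 lost the call, 2 gained it and 0 reversed a called direction. Over these and the 9 genes, the sign turned for 28 of 1753 values, in 11 of 94 results, none of them called, all on leaving out libraries. All 1035 log2 fold changes of the 9 genes stayed within 1 SD of the edgeR value with all libraries. The SD is that of log2 CPM between libraries within groups. The alternatives share most or all of their libraries, so such shifts are small by construction and do not measure stability. The precision is set by 4 libraries a group and by the spread between replicate numbers, and what a number marks is not stated in the labels.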

Other observations

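Several pathway genes were too low to test. Ppara, the liver-type relative of Pparg, had 71 counts over all 16 libraries, Ppargc1a had 18, Plin1 had 3, Plin5 had 2 and Cidec had 0.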
